A study of Mus musculus with 426 samples.

Results

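Histone cluster genes are the genes for linker and core histones that lie in 4 groups on the mouse chromosomes and carry symbols beginning with Hist1h, Hist2h, Hist3h or Hist4h. They were taken as every row of the RNA table whose symbol begins with Hist, a digit from 1 to 4 and h, which gave 69 of 24424 genes: 6 linker histones (H1), 19 H2A, 19 H2B, 12 H3 and 13 H4 genes. The 69 genes had entries in RefSeq (build GRCm38.p6), with the Hist1 group on chromosome 13, Hist2 on chromosome 3, Hist3 on chromosome 11 and Hist4 on chromosome 6. They were read in single cells of a mouse pancreatic tumour model by GTO, which amplifies the RNA and the genome of a cell in 1 tube. Male C57BL/6 mice aged 6 to 8 weeks had received 50000 KPC1199-EGFP cells in the pancreas. This pancreatic cancer line makes green fluorescent protein (GFP), and tumours were taken after 6 to 8 weeks. Every group came from such mice, and no untreated animal entered a comparison.

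From the primary tumours of 3 mice, live cells were sorted as GFP+, as EpCAM+ (an epithelial surface protein), as GFP+EpCAM+ or as CD45+ (the surface protein of leukocytes). GFP+ cells were also sorted from metastases in the peritoneum (mice 1, 2 and 3) and in kidney, liver and spleen (mice 2 and 3). The tumour cells are 1 injected line, the host keeps its own immune system, and the labels do not say whether the EpCAM+ cells lacked GFP. RNA was analysed in 368 cells. The primary tumours gave 76 GFP+ cells, 25 EpCAM+ cells, 31 GFP+EpCAM+ cells and 56 CD45+ cells, and the GFP+ cells of metastases were 85 peritoneal, 44 kidney, 16 liver and 35 spleen cells.

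Core histones form the protein spool around which DNA is wound, with paired H2A, H2B, H3 and H4 subunits, and the linker histone H1 binds where the DNA enters and leaves that spool. Most of these genes have no introns, are transcribed in S phase when DNA is copied, and give messages that end in a stem-loop in place of a poly(A) tail. Some members can also make polyadenylated messages, and histone variants outside the clusters are made through the whole cell cycle. Per the labels, first-strand synthesis used an oligo-dT primer, which anneals to poly(A). Mki67 and Top2a, the genes for the proliferation antigen Ki-67 and for the DNA topoisomerase of dividing cells, served as the markers of cycling cells to which the histone genes were related.

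Promoters were read for 62 members from RefSeq, and the 150 bases before the start are printed for the highest member of each class that has an entry, and for Hist1h2ap, the next highest H2A gene per kb. In build GRCm38.p6 these lie at chr13:23622559-23622708 (minus strand) for Hist1h1e, chr3:96245347-96245496 (plus strand) for Hist2h2aa1, chr13:23571250-23571399 (plus strand) for Hist1h2bg, chr13:23562386-23562535 (minus strand) for Hist1h3e, chr13:22041363-22041512 (minus strand) for Hist1h4i and chr13:21833476-21833625 (minus strand) for Hist1h2ap. Each is written 5′ to 3′ toward the gene, and capitals mark matches, on either strand, to the TATA box (TATAAA), the CCAAT box, the octamer (ATTTGCAT) or the H1 box (AAACACA).
Hist1h1e: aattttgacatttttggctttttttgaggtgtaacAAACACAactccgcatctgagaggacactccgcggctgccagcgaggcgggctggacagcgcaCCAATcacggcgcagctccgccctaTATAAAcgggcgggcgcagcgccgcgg
Hist2h2aa1: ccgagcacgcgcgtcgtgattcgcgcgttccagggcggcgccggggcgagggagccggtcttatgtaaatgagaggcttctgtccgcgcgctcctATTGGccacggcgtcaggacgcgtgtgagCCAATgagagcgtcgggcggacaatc
Hist1h2bg: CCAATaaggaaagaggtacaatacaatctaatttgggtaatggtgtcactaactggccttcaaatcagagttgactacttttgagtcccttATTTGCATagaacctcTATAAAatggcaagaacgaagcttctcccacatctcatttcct
Hist1h3e: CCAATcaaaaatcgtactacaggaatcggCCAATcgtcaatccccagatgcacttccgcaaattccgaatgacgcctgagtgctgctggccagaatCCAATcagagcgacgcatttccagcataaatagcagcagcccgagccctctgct
Hist1h4i: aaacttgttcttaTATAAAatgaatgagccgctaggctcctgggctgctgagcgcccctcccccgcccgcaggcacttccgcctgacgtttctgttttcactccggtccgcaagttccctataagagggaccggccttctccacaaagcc
Hist1h2ap: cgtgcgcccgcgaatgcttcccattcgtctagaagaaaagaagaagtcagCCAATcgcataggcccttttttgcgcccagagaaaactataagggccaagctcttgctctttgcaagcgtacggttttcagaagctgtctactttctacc

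In the 250 bases before the start, the H1 box was found in 5 of the 6 linker genes (83.3%), against 6.25% of the 32851 promoters in the table. The octamer was found in 7 of 18 H2A promoters (38.9%) and in 7 of 16 H2B promoters (43.8%), against 1.60% of all promoters, and in no H1, H3 or H4 promoter. Hist1h2be has 2 starts in the table, and a match before either counts. A CCAAT box stood in 100% of the H1, H2A and H2B promoters, in 8 of 10 H3 promoters and in 3 of 12 H4 promoters, against 33.8% of all. The TATA box sequence was found anywhere in these bases in 29 of the 62 member promoters (46.8%), against 12.4% of all. The nearest match lay 40 to 20 bases before the start in 13 members, and 137 bases before it in Hist1h4i. H2A and H2B genes often face away from each other across a short gap: of 10 such pairs, the gap between the starts ran from 163 bases (Hist1h2ak and Hist1h2bn) to 280 bases (Hist1h2ba and Hist1h2aa), so part of a promoter is shared by both partners. Hist1h2al, Hist1h2bc, Hist1h3a, Hist1h3f, Hist2h2be, Hist2h4 and Hist3h2bb-ps had no promoter entry.

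Kept cells held 10805 to 17845616 RNA counts, with medians by group from 65672 (liver) to 2093406 (GFP+EpCAM+), and the share of DNA in a cell's counts had group medians from 12.6% (spleen) to 47.2% (liver). In peritoneum of mouse 1, 2 pairs of libraries had DNA counts that differed by less than sampling noise, and each pair was counted as 1 cell. A single cell gave 75.3% of the summed counts of liver in mouse 2 and 63.2% of those of EpCAM+ cells in mouse 2. The labelled cell types were checked against 10 leukocyte, 10 epithelial and 10 fibroblast markers. The leukocyte markers summed to 10076 to 19790 CPM (counts per 1000000 RNA counts of a cell, as the mean over the cells of a mouse) in CD45+ cells and to at most 3228 in every other group. The epithelial markers summed to 11687 to 20213 in EpCAM+ and 18435 to 24957 in GFP+EpCAM+ cells, against 1343 to 8167 in GFP+ cells of the primary tumour, where fibroblast markers summed to 4815 to 15208.

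Captured histone cluster RNA was scarce and came from few members. Messages without a poly(A) tail can escape the oligo-dT primer, so these values do not give the histone RNA of a cell. The 69 genes took 224964 counts, or 0.0320% of all counts in the 368 cells, and a cell had a count for a median of 7 members (0 to 39). Hist1h2bc, an H2B gene, held 49.5% of the member counts, the H2A genes Hist2h2aa1, Hist3h2a and Hist1h2ap held 17.9%, 5.03% and 4.76%, and the linker gene Hist1h1e held 4.52%. These 5 genes made up 81.7% of the member counts, and Hist2h3c1, an H3 gene, had none. Shares of counts are not per length, and the RefSeq span of Hist1h2bc is 8282 bases. Hist1h2bq and Hist1h2br had equal values in each of the 151 cells with a count of either, so reads of these near-identical copies cannot be told apart. Hist1h2ao and Hist1h2ap had unequal counts (2801 and 10710), as did Hist2h2aa1 and Hist2h2aa2 (40216 and 548). Whether reads were shared within these pairs was not tested, and their levels call for caution. Of the nonzero values, 68.8% were not whole numbers for Hist1h2bc, 96.8% for Hist1h2bg and 72.7% for Hist1h4i, against 9.76% for Hist2h2be. Whether reads of other copies entered these values was not tested, so levels of single members need the same caution.

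Exonic reads were taken as RNA, so a read of genomic DNA within an intronless gene counts as RNA. The background was gauged in the same cells with 1119 single-exon receptor genes (olfactory and vomeronasal receptors, silent in most tissues) of at most 1200 bases. Their counts per kb of gene rose with a cell's DNA counts (Spearman rho 0.940 over 368 cells) against 0.208 with its RNA counts, both given as a description. Over all kept cells they had a median of 279 counts per kb, a 5th percentile of 105, a 95th of 651 and a 99th of 1069. Of the 62 members of at most 1000 bases, 18 stood above that 99th percentile, 8 between the 95th and the 99th, 8 between the median and the 95th, and 28 at or below the median.

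**Figure D1:**
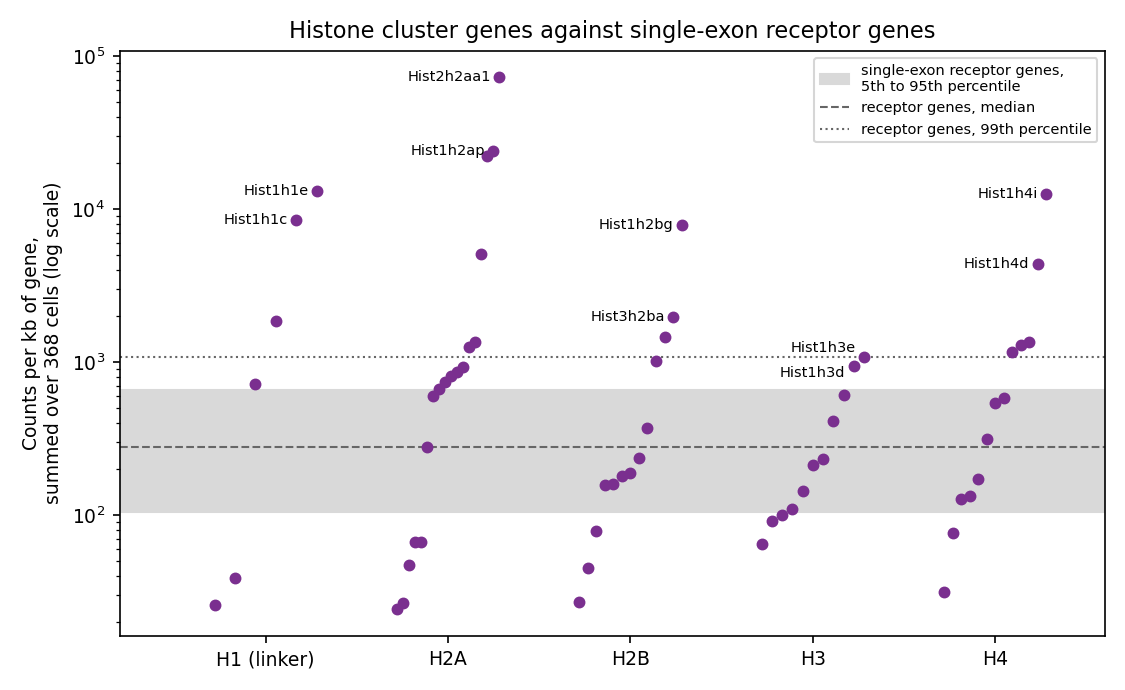
Counts per kb of gene on a log scale, summed over 368 cells, for the histone members of at most 1000 bases with a count (points, by class), with the single-exon receptor genes as a gray band (5th to 95th percentile, 105 to 651), a dashed line (median, 279) and a dotted line (99th percentile, 1069). Hist2h2aa1 reaches 72331 counts per kb, and most H3 members lie in or under the band.

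The classes differed in how many members exceeded the receptor genes. Per kb, Hist2h2aa1 had 72331 counts, Hist1h2ap 23694 and Hist3h2a 22278, which is 259, 84.8 and 79.8 times the receptor median. Hist1h1e had 13013 counts per kb, Hist1h4i 12419, Hist1h1c 8469 and Hist1h2bg 7849. These are sums over cells, and 1 cell gave 64.7% of the counts of Hist1h4i, 48.9% of Hist1h2bg and 44.9% of Hist1h1e. For Hist2h2aa1 and Hist3h2a the highest cell gave 31.2% and 12.7%. Above the 99th percentile stood 3 of 6 linker genes, 6 of 18 H2A, 3 of 13 H2B, 5 of 13 H4 and 1 of 12 H3 genes. A gene can pass through a single cell: Hist1h2ak, among these H2A genes with 1245 counts per kb, had 94.1% of its counts in 1 cell. The H3 gene was Hist1h3e, with 1081 counts per kb against the limit of 1069, and 8 of the 12 H3 genes were at or below the receptor median. The testis-type linker gene Hist1h1t had 25.9 counts per kb, under the 5th percentile. Between the members and this background no test was made, and levels of members near the band cannot be told apart from reads of genomic DNA.

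Within a cell, a single gene often gave most of the histone counts: the leading member made up a median of 57.2% of the histone CPM in cells with a count. At least 1 member had a count in 350 of 368 cells, the median cell had a summed histone level of 130 CPM, and 32 cells exceeded 1000 CPM. In those 32 cells the leading member gave a median of 83.5% of the histone CPM (lowest 38.4%), and it was Hist1h2bc in 21 cells, Hist2h2aa1 in 4, Hist1h2ap in 4, and Hist1h1e, Hist2h2be and Hist3h2a in 1 each. The highest cell, a GFP+ cell of the primary tumour of mouse 1, had 7333 CPM, of which Hist1h2bc made up 7229. Next came a CD45+ cell of mouse 3 with 5901 CPM (Hist1h2bc, 5071) and an EpCAM+ cell of mouse 2 with 5065 CPM (Hist2h2aa1, 4213). Medians over cells are less moved by such cells. For the primary tumour they were 117 CPM (GFP+), 250 CPM (EpCAM+), 156 CPM (GFP+EpCAM+) and 76.2 CPM (CD45+). Spleen had the lowest median of the sites with 58.5 CPM, then liver with 79.5, peritoneum with 137 and kidney with 165. Levels below are means over the cells of a mouse.

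**Figure D2:**
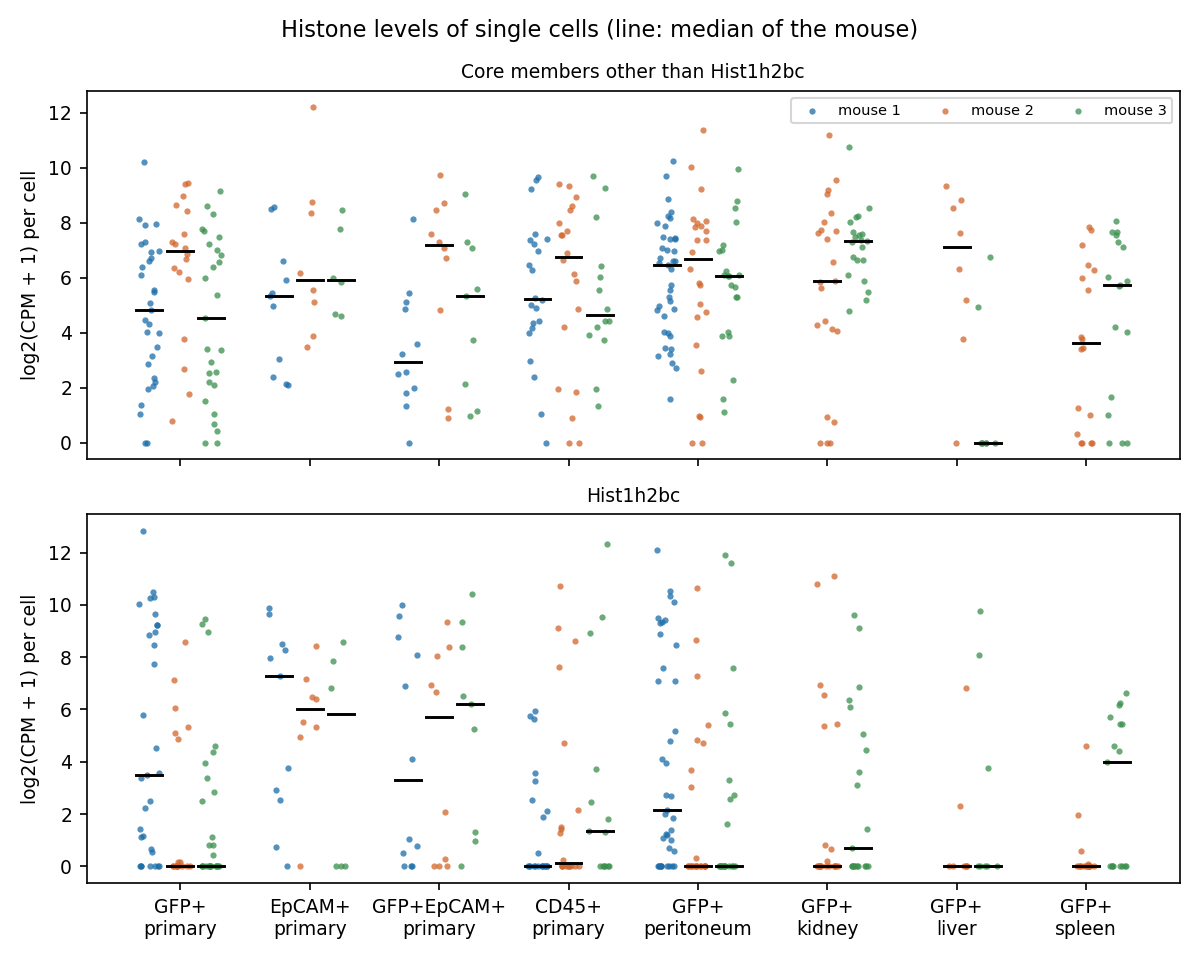
Level per cell as log2(CPM + 1) of the core members other than Hist1h2bc (top) and of Hist1h2bc (bottom), by group and mouse, with a line at the median of each mouse. Hist1h2bc was at 0 in many cells and above 1000 CPM in 18 of 368.

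Linker histones differed more between the mice of a sort than between the sorts. Their summed level in GFP+ primary cells was 1.73, 44.7 and 50.2 CPM in mice 1, 2 and 3. It was 0.844, 4.42 and 12.5 in EpCAM+, 1.36, 25.8 and 15.7 in GFP+EpCAM+ and 8.30, 72.5 and 3.14 in CD45+ cells. The lowest and highest mouse of each sort lay more than 10-fold apart, and the 4 sorts overlapped. Peritoneum had 10.5, 9.26 and 14.7 CPM, and in mice 2 and 3 kidney had 19.9 and 22.6, liver 22.6 and 1.01, and spleen 7.88 and 4.72. The median cell had no linker count in 6 of the 8 groups, and 0.589 and 0.548 CPM in EpCAM+ and CD45+ cells. Hist1h1e, a somatic linker gene, had 934 CPM in its highest cell, which was a GFP+ primary cell of mouse 3.

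H2A levels were led by Hist2h2aa1, and the 4 sorts overlapped. The 19 H2A genes summed to 77.8, 138 and 66.7 CPM in GFP+ primary cells and to 61.7, 642 and 104 in EpCAM+ cells, where mouse 2 holds a cell with 4706 CPM of H2A genes. They summed to 187 and 165 CPM in kidney (mice 2 and 3), 150 and 16.9 in liver and 22.4 and 50.2 in spleen. By mean, kidney was above GFP+ primary cells in both mice and spleen below them in both. The median cell reversed this in kidney of mouse 2, which lay below GFP+ primary cells, and in spleen of mouse 3, which lay above. Kidney of mouse 3 and spleen of mouse 2 kept the direction of the means.

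Hist1h2bc held most of the H2B counts, and its level differed widely between mice. In GFP+ primary cells its mean was 511, 38.3 and 70.6 CPM in mice 1, 2 and 3. In EpCAM+ cells it was 258, 96.7 and 121, in GFP+EpCAM+ cells 218, 148 and 285, and in CD45+ cells 8.72, 143 and 452. Peritoneum had 317, 95.2 and 328 CPM, kidney 186 and 79.2, liver 14.4 and 143, and spleen 1.49 and 25.9 (mice 2 and 3 where 2 values are given). Of the sites, spleen alone had both values under those of all 3 GFP+ primary samples. The other 18 H2B genes summed to 14.3, 40.2 and 11.3 CPM in GFP+ primary cells and to 23.3 and 27.4 in spleen, within the range of the primary tumour.

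Shares of cells with a count depend on depth, so cells were also thinned to 10000 counts, which all 368 cells reached. Before thinning, Hist1h2bc had a count in 59.2% of GFP+ primary and 37.1% of spleen cells, and after it in 30.3% and 5.71%. EpCAM+ and GFP+EpCAM+ cells had Hist1h2bc in 48% and 45.2% of thinned cells (80% and 80.6% before). A linker member was found in 0 of 25 thinned EpCAM+ cells and 0 of 31 GFP+EpCAM+ cells, against 10 of 76 GFP+ cells, although 52%, 45.2% and 48.7% had a linker count at full depth. At 10000 counts a single count is 100 CPM, so thinned shares near 0 show only that few cells passed that level.

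Captured RNA of H3 and H4 genes was low in every group. H3 genes summed to 0.925, 12 and 2.0 CPM in GFP+ primary cells and to 6.44, 21.4 and 8.53 in peritoneum, and no kept liver cell had an H3 count. H4 genes summed to 7.07, 15.2 and 16.6 CPM in GFP+ primary cells and to 31.3, 14 and 19.2 in peritoneum, and liver and spleen had at most 2.79 in any mouse. In peritoneum of mouse 1 a single cell reached 835 CPM of Hist1h4i. The liver sums held 19922044 counts in mouse 2, of which 75.3% came from 1 cell, and 535652 in mouse 3. Over both, a count of 0 for a gene allows up to 0.147 CPM, for counting error only.

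Summed over all 69 members, spleen lay below every other group in its means per mouse. The other groups overlapped, except that liver lay below kidney and peritoneum. The level was 613, 288 and 217 CPM in GFP+ primary, 352, 807 and 257 in EpCAM+, 255, 397 and 403 in GFP+EpCAM+ and 169, 405 and 601 in CD45+ cells. It was 480, 376 and 480 in peritoneum, 462 and 334 in kidney, 260 and 161 in liver and 59.7 and 114 in spleen. The mean over mice was 373 ± 211 CPM (SD, n = 3) in GFP+ primary and 86.7 ± 38.1 (SD, n = 2) in spleen, and no p is given for a sum over the members. Liver depended on the filter on cells: its mean was 210 CPM with it and 419 CPM without it, against 373 and 376 in GFP+ primary cells. The receptor genes summed to 308 and 3839 CPM in spleen and to 2404, 1753 and 206 in GFP+ primary cells, so against the GFP+ cells of the same mouse it was lower in mouse 2 and higher in mouse 3. Fibroblast markers summed to 12959 to 16320 CPM in spleen, against 4815 to 15208 in GFP+ primary cells, and their part in the lower histone level was not tested.

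**Figure D3:**
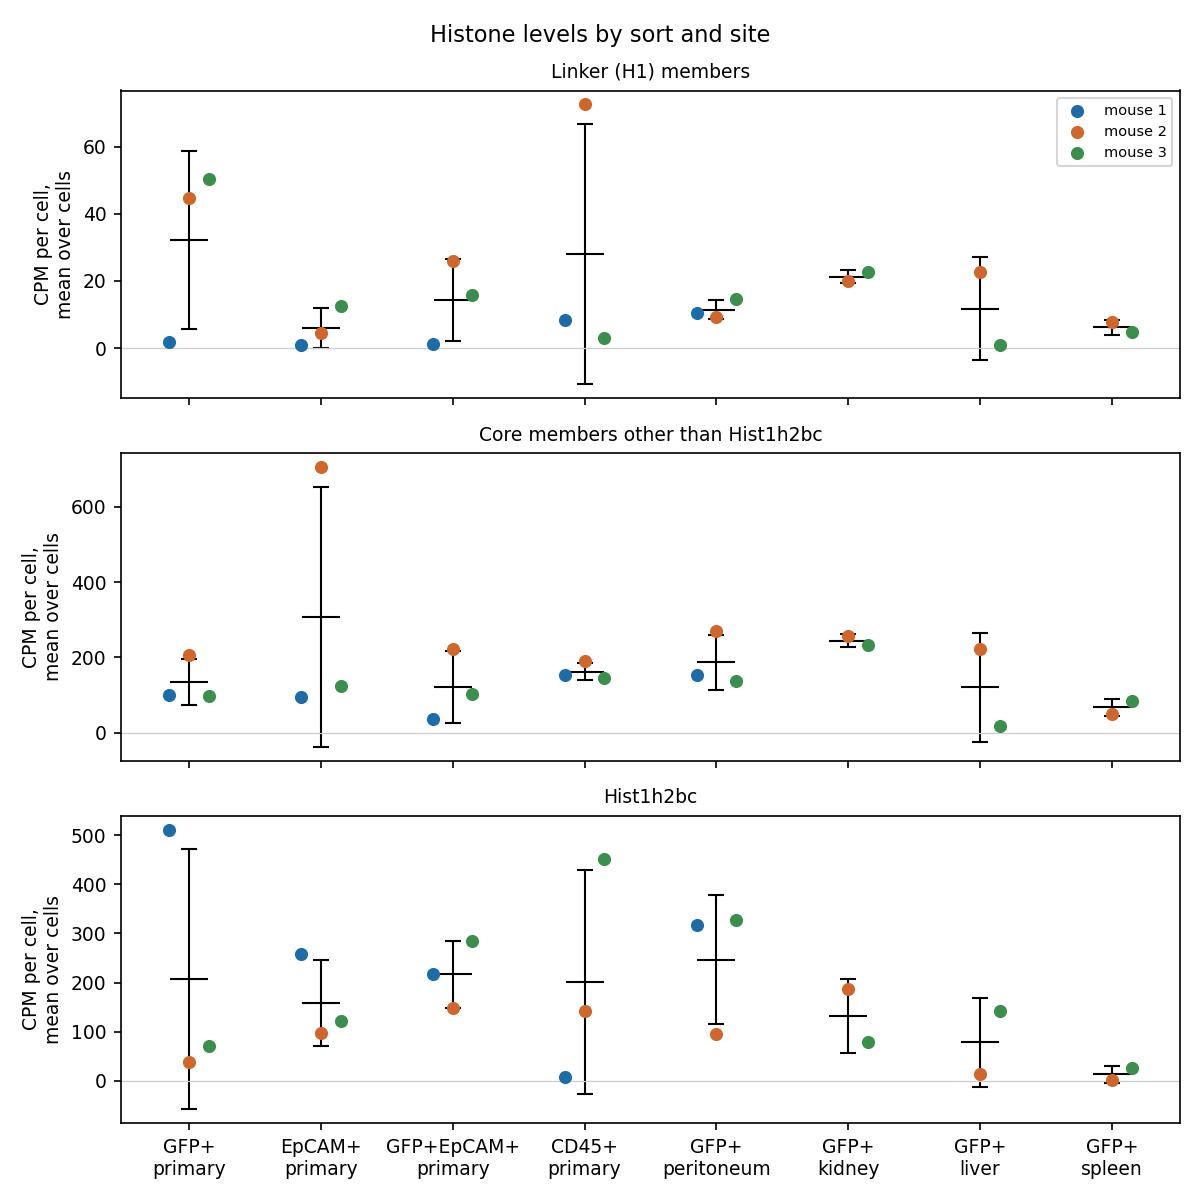
Mean CPM per cell of the linker members, the core members other than Hist1h2bc and Hist1h2bc alone, by sort and site. Points are mice, and the black line and bar are the mean and SD over mice. Spleen has 1.49 and 25.9 CPM of Hist1h2bc, under the 38.3 to 511 of GFP+ primary cells.

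In GFP+ cells of the primary tumour, the linker members and the core members other than Hist1h2bc had a rho above 0 with Mki67 and Top2a in each mouse. There the core members other than Hist1h2bc had a Spearman rho with Mki67 of 0.53, 0.57 and 0.73 in mice 1, 2 and 3, and of 0.61 over the 76 cells. With Top2a it was 0.37, 0.32 and 0.44. The linker members had 0.22, 0.34 and 0.59 with Mki67 and 0.40, 0.42 and 0.45 with Top2a. Hist1h2bc differed from both: its rho was -0.02, -0.14 and 0.32 with Mki67, and -0.27, -0.08 and -0.10 with Top2a. These are descriptions over cells of 1 mouse, which share a tumour, a sort and a range of depths. For comparison, Mki67 and Top2a themselves had a rho of 0.60 in the same 76 cells.

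Other groups gave a range of values, and the sign often differed between mice. Over 21 sets of cells (1 group in 1 mouse), the core members other than Hist1h2bc had a median rho with Mki67 of 0.27 (16 above 0, range -0.40 to 0.73), and the linker members 0.34 (17 above 0, range -0.42 to 0.59). Hist1h2bc had a median of -0.12, with 17 of 21 sets below 0 (range -0.55 to 0.33). With Top2a the medians were 0.23, 0.27 and -0.13. Without mouse 2 the linker medians were 0.22 with Mki67 and 0.13 with Top2a, and that of the other core members with Mki67 was 0.44. In spleen the other core members had a rho of 0.68 and 0.41 with Top2a (mice 2 and 3), beside 0.37, 0.32 and 0.44 in GFP+ primary cells, and in EpCAM+ cells the linker members had 0.38, 0.44 and 0.14 with Mki67. In EpCAM+ cells Hist1h2bc was below 0 with both markers in each mouse (-0.55, -0.36 and -0.09 with Mki67, over 11, 8 and 6 cells). The same held in each mouse of GFP+EpCAM+, kidney and liver cells, and not in the other groups. Kidney had a rho of -0.11 and -0.22 between the core members other than Hist1h2bc and Mki67, while the linker members and Top2a had 0.36 and 0.25 there. Many of these values are small and rest on sparse counts.

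**Figure D4:**
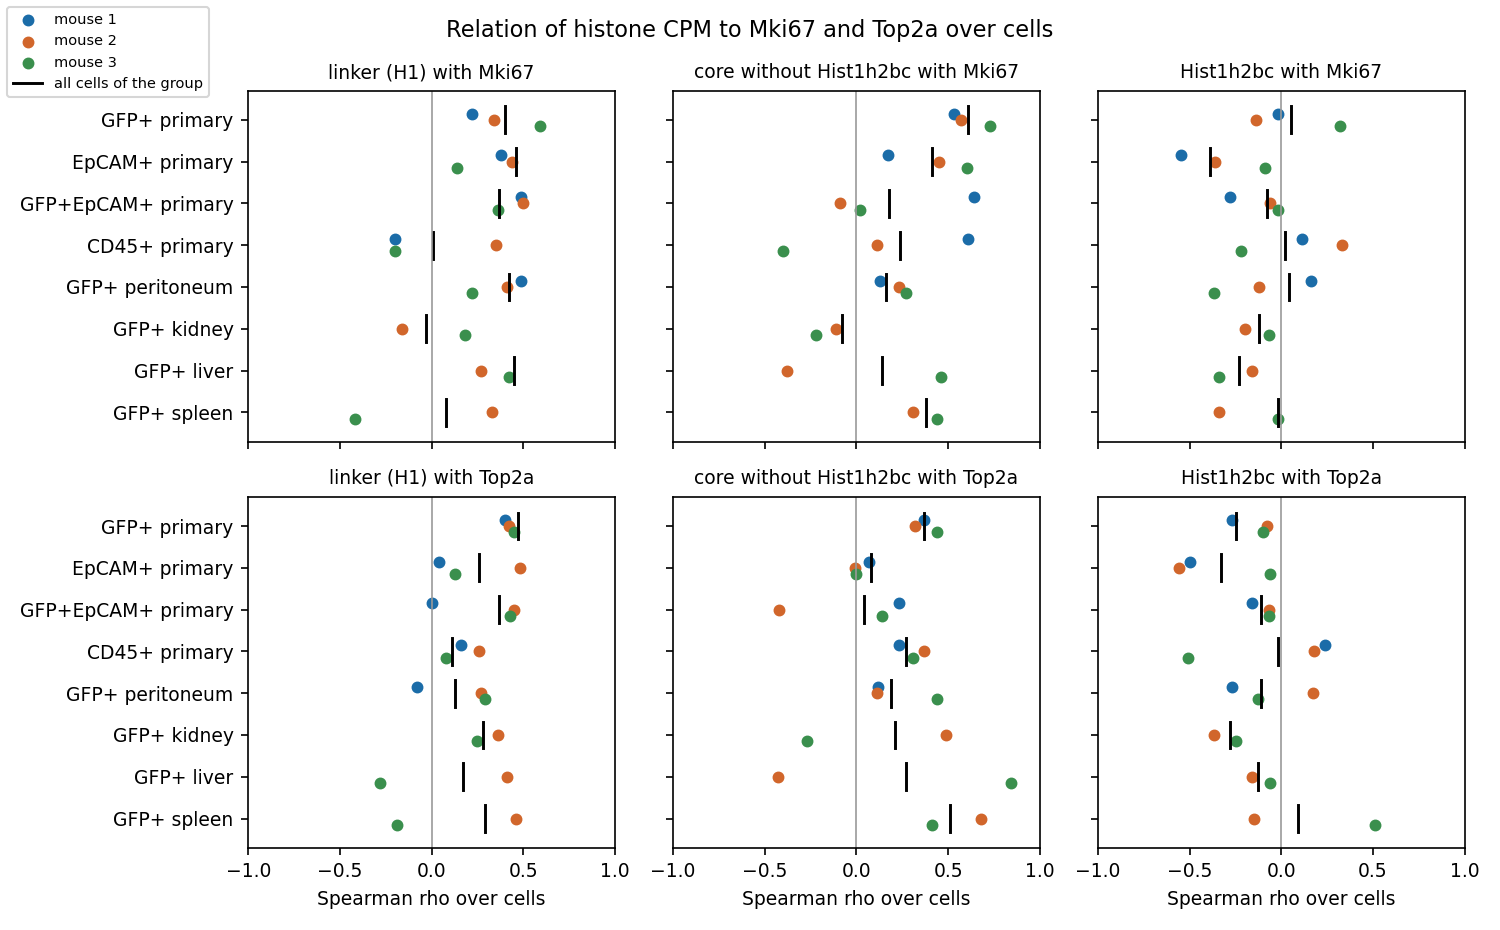
Spearman rho over cells of linker members, core members other than Hist1h2bc and Hist1h2bc (columns) with Mki67 and Top2a (rows), for each group. Points are mice and black lines all cells of a group. The points for GFP+ primary cells lie at 0.22 to 0.73 for linker and other core members with Mki67, and most points for Hist1h2bc lie left of 0.

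Depth and genomic reads moved with the same measures. The number of members with a count rose with the number of detected genes in each group (rho 0.61 to 0.70). Mki67 itself rose with the receptor genes, with a rho of 0.68 in CD45+ and 0.70 in kidney cells, but of 0.26 in GFP+ primary cells, where the core members other than Hist1h2bc had 0.20 with the receptor genes. In the other groups these core members had 0.06 (EpCAM+) to 0.48 (GFP+EpCAM+), with 0.41 in spleen. Hist1h2bc had a rho of 0.52 with the receptor genes in spleen and -0.29 (EpCAM+) to 0.18 (GFP+ primary) elsewhere. The part of depth and of genomic reads in the relations to Mki67 and Top2a was not tested. Slbp, whose product binds the stem-loop of histone messages, was detected in 73 of 76 GFP+ primary cells, at 573, 191 and 272 CPM.

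Between the sorts of the primary tumour, edgeR called no histone member at an adjusted p under 0.05. The fit of sums per mouse tested 30 members of 69 among 19703 genes; the others fell under the filter on low counts, and a member can pass it through 1 group alone, so the counts are descriptions. In CD45+ against GFP+ cells edgeR called 0.817% of all genes and 0 members, 3 members had an unadjusted p under 0.05 (10.0%, against 17.3% of all genes), and DESeq2 called 1 member, against 10.8% of all genes. For EpCAM+ against GFP+ cells edgeR called 0% of genes and no member, 7 members were under 0.05 unadjusted (23.3%, all lower, against 11.5% of all genes), and DESeq2 called none, against 6.62%. For GFP+EpCAM+ against GFP+ cells edgeR called 0%, 7 members were under 0.05 unadjusted (23.3% against 10.2%), and DESeq2 called 1, against 5.99%. For EpCAM+ against GFP+EpCAM+ cells edgeR called 0%, 7 members were under 0.05 unadjusted (23.3% against 13.7%), and DESeq2 called none, against 6.50%. Limma on means over cells called no member in these comparisons. The CD45+, EpCAM+ and GFP+EpCAM+ comparisons share the GFP+ samples.

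The median member lay below the median gene in these 4 comparisons. The median log2 difference of the 30 members was -0.74 in CD45+ (all genes 0.20), -1.83 in EpCAM+ (0.07), -1.51 in GFP+EpCAM+ (-0.23) and 0.10 in EpCAM+ against GFP+EpCAM+ cells (0.30). DESeq2 scaled the sums differently and placed the median of all genes at 0.94 for CD45+ cells and the members at 0.05, a gap of -0.89 against -0.94 with edgeR. Of the 4 linker genes tested, Hist1h1e and Hist1h1c had log2 differences of -5.26 and -4.02 in EpCAM+ against GFP+ cells, and Hist1h1b had 3 counts against 654. Epithelial markers moved with the same contrast, as given above, and their part was not tested.

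Single members illustrate how few counts stood behind these values. Hist1h3f, an H3 gene, had 1.34, 0.251 and 0.550 CPM in the CD45+ sums of mice 1, 2 and 3 and 0.0236, 0 and 0.0474 in the GFP+ sums, so the groups did not overlap. The log2 difference was 4.28 (SE 1.70, higher in 3 of 3 mice; edgeR adjusted p = 0.200, DESeq2 adjusted p = 0.0125), from 47 counts against 5. Over all kept cells Hist1h3f had 109 counts per kb, under the receptor median of 279, and the receptor genes moved the same way, with a median log2 difference of 1.29 in CD45+ against GFP+ cells. The part of genomic reads in the Hist1h3f difference was not tested. Hist1h4i, an H4 gene, had 0 counts in EpCAM+ and in GFP+EpCAM+ cells of all 3 mice, against 0.378, 1.14 and 8.57 CPM in GFP+ cells. Against a floor of 3 counts over the group it was at least 55.8-fold lower in EpCAM+ and at least 86.2-fold lower in GFP+EpCAM+ cells (edgeR adjusted p = 0.343 and 0.275). Hist1h1e had 0.331, 52.8 and 63.7 CPM in GFP+ sums and 0.0749, 0.358 and 0.896 in GFP+EpCAM+ sums, a log2 difference of -6.39 (SE 2.25; lower in 3 of 3 mice, with overlapping groups; edgeR adjusted p = 0.283, DESeq2 adjusted p = 0.00863). Over all kept cells, 1 cell gave 44.9% of the Hist1h1e counts, and the highest cell, at 934 CPM, was a GFP+ primary cell of mouse 3. Hist1h3d had no count in EpCAM+ cells and 0, 6.88 and 1.66 CPM in GFP+EpCAM+ cells, at least 47.2-fold lower (edgeR adjusted p = 0.287). Mki67 differed by 0.20 between CD45+ and GFP+ cells (edgeR adjusted p = 0.960) and Top2a by -3.85 (edgeR adjusted p = 0.267).

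Between metastatic sites and the primary tumour, edgeR again called no member of the 45 tested among 21988 genes. In peritoneum it called 0.00910% of all genes, 4 members were under 0.05 unadjusted (8.89%, against 6.10% of all genes), and DESeq2 called 1 member, against 1.25%. In kidney it called 0%, 4 members were under 0.05 unadjusted (all higher, 8.89% against 6.01%), and DESeq2 called none, against 1.41%. In liver it called 0.0136% of genes, 13 members were under 0.05 unadjusted (12 lower and 1 higher, 28.9% against 14.2%), and DESeq2 called 5, all lower, against 7.07%. In spleen it called 0%, 11 members were under 0.05 unadjusted (all lower, 24.4% against 6.16%), and DESeq2 called 1, against 1.36%. Limma called no member at any site, and the 4 comparisons share the GFP+ primary samples.

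**Figure D5:**
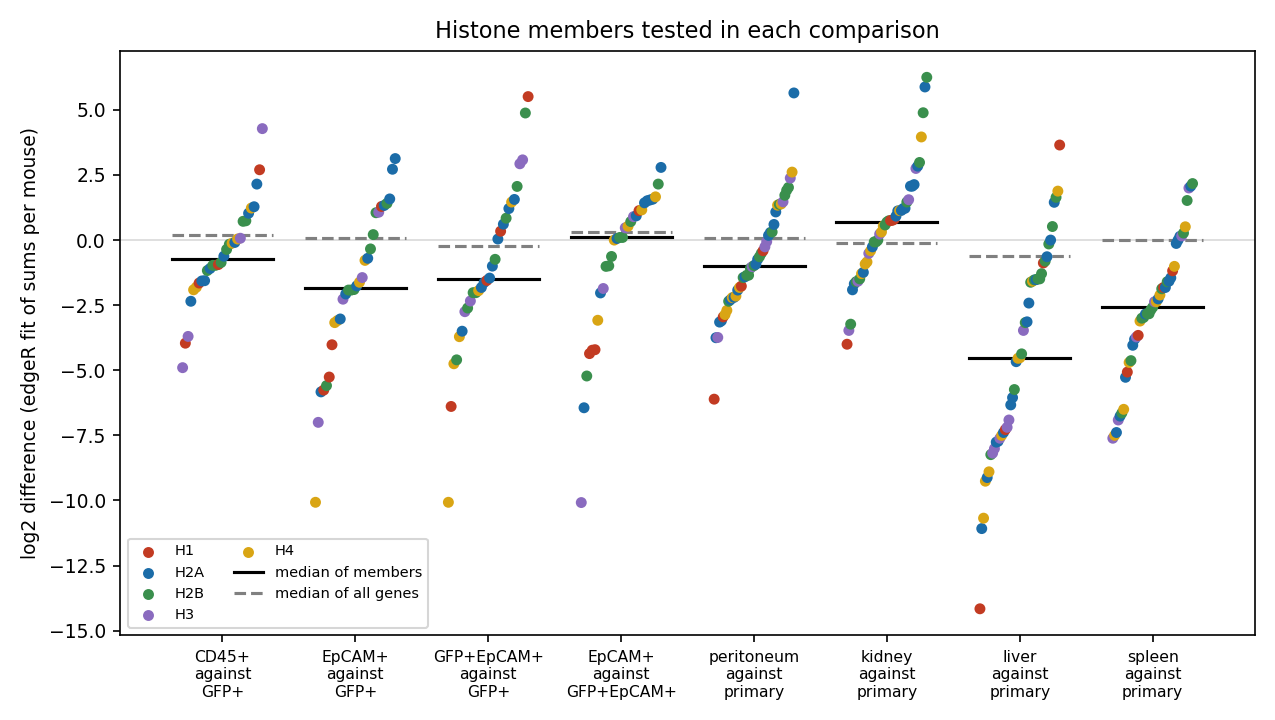
Log2 difference of each tested member in each comparison, from the edgeR fit of sums per mouse, colored by histone class, with the median of the members (black) and of all genes (gray, dashed). The member medians run from -4.52 in liver to 0.69 in kidney. Points under about -7 are genes at or near 0 counts in a group and are no bound on the fold.

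The sites differed in direction. The median log2 difference of the 45 members was -0.98 in peritoneum (all genes 0.08), 0.69 in kidney (-0.10), -4.52 in liver (-0.61) and -2.58 in spleen (0.01). In liver, 22 of the 45 had no count, and with those genes at the bound set by the floor of 3 counts the median was -1.49 (all genes -0.26). By class, the medians in spleen were -2.74 for the 4 linker genes, -2.04 for 14 H2A, -2.68 for 13 H2B, -3.04 for 6 H3 and -2.74 for 8 H4 genes. In kidney they were 0.75, 1.17, 0.58, -0.14 and -0.05 in the same order. Without TMM scaling the median of all genes moved to 0.60 in peritoneum, 0.22 in liver and 0.28 in spleen, and the members' medians were then -0.42, -3.86 and -2.18.

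Hist1h2bc was the member with the smallest p in spleen. Its summed level was 0.647 and 20.2 CPM in spleen (mice 2 and 3) and 311, 46 and 131 CPM in GFP+ primary cells, so the groups did not overlap. The log2 difference was -4.63 (SE 1.65; lower in 2 of 2 mice with both groups; edgeR adjusted p = 0.535, DESeq2 adjusted p = 0.0484). Mki67 and Top2a differed there by 0.17 and 1.07 (edgeR adjusted p = 0.999 for both), so the point values of both cycling markers were above 0, with no call.

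The linker gene Hist1h1e was lowest in p in both peritoneum and liver. In peritoneum it had 0.263, 0.0817 and 2.90 CPM against 0.331, 52.8 and 63.7 in GFP+ primary cells, a log2 difference of -6.11 (SE 1.92; lower in 3 of 3 mice, with overlapping groups; edgeR adjusted p = 0.355, DESeq2 adjusted p = 0.0145). The groups overlap because GFP+ primary cells of mouse 1, with 0.331 CPM, lie under peritoneum of mouse 3, with 2.90 CPM. In liver it had 0 counts after rounding and was at least 266-fold lower than in GFP+ primary cells (edgeR adjusted p = 0.193, DESeq2 adjusted p = 0.000579). With a block for the mouse, which pairs sums of the same animal, edgeR's adjusted p for this gene was 0.0345, the 1 call made by that fit. Hist1h1c and Hist1h2ap were also called lower in liver by DESeq2 (DESeq2 adjusted p = 0.0131 and 0.0143), from 2 counts against 2229 and 6 against 2453. For Hist1h2ap the edgeR log2 difference was -6.05, and -1.55 with no filter on cells. Hist1h2ao and Hist1h4d had no count in liver and were at least 36.1-fold and 24.7-fold lower (DESeq2 adjusted p = 0.0056 and 0.0362). A single cell of liver mouse 2 weighs 75.3% of that sum. On the GFP+ primary side, the highest Hist1h1e cell had 934 CPM and belonged to mouse 3. Over all kept cells, 1 cell gave 44.9% of the counts of this gene.

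Kidney was the site where the median member was above 0. Hist3h2ba, an H2B gene, had 11.6 and 3.90 CPM in kidney (mice 2 and 3) against 0.449, 0.0268 and 0 in GFP+ primary cells, without overlap, a log2 difference of 6.25 (SE 1.84; higher in 2 of 2 mice; edgeR adjusted p = 0.348, DESeq2 adjusted p = 0.0559). Hist1h2bg and Hist1h2ap had differences of 4.89 and 2.07, and Hist1h2bg had 37.3 CPM in mouse 2 and 0.103 in mouse 3. Mki67 differed by -2.11 in kidney (edgeR adjusted p = 0.996), opposite in sign to the median histone member.

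No gene of the related lists was called. Of 19 genes of histone RNA synthesis and 3′ end processing, 17 histone chaperones and assembly factors, 10 histone variants outside the clusters, 20 S phase and 20 G2 and M phase genes, edgeR called 0 in each of the 8 comparisons. Unadjusted, 9 of the 20 G2 and M phase genes were under 0.05 in CD45+ cells, with a median log2 difference of -3.41, and 11 in liver, with -3.51. In spleen these lists had medians of -0.26, 0.35, -0.42, -0.33 and -0.04 in the order above, against -2.58 for the histone members. In EpCAM+ against GFP+ cells the linker genes had a median of -4.64, and the S phase and the G2 and M phase genes -0.78 and 0.41. The receptor genes had medians from -0.56 (GFP+EpCAM+ against GFP+) to 1.41 (EpCAM+ against GFP+EpCAM+).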

How the data were processed

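Messenger RNA and genomic DNA of single cells were read together. Per the labels' protocols, complementary DNA was made with an oligo-dT primer, amplified for 15 cycles, amplified again with the genome and sequenced as single reads of 76 bases. Per the series' design text, exonic reads were taken as RNA and nonexonic reads as DNA. The submitters' processing notes name STAR, kallisto, Bowtie 1.0 and the build mm9, with no role for each. The authors deposited expected counts of RNA (97.4% whole numbers), which were rounded after summing over cells. The DNA table holds counts in 5000 bins, as deposited by the authors. Left out of 24520 RNA rows were 92 spike-ins, with 0.000348% of counts, and 4 whose symbol occurs again.

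Cells with at least 500 genes and 10000 counts were kept. Expected counts were summed per mouse and group, since the mouse is the replicate, filtered with filterByExpr, scaled with TMM and tested with quasi-likelihood fits (edgeR 4.0.16). P-values were adjusted by Benjamini-Hochberg over all genes at 0.05. Biological coefficients of variation were 1.16 (sorts) and 1.08 (sites). DESeq2 1.42.0 and limma 3.58.1 (means of log2(CPM+1) and log2(CPM+0.1)) were alternatives, beside other filters, scaling without TMM, the mouse as a block, and leaving out a mouse. The fit was also run on simulated counts with known changes, and no result here rests on that run. P-values measure the spread between these mice.

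Mouse numbers pair samples of the same animal. Deviations from group means had a median correlation of 0.0635 (0.0168 to 0.213) between sums of the same mouse in the sorts and 0.0732 (-0.190 to 0.375) in the sites. CPM in figures and levels are means over cells, and CPM beside tests are from sums, which weight cells by depth. RefSeq gene spans (GRCm38.p6) served for lengths and promoters, and no coordinate of the mm9 files was used. Named genes were Mki67, Top2a, the 3 highest members of each class, any member called and the member with the smallest p in each comparison. The members called by DESeq2, and members beside them, were named after their values were seen. The members and lists were chosen with earlier results of these data known.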

Additional observations from a re-analysis of the deposited data

Results flagged for a closer look

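Counts of histone members were also present in bulk libraries that entered no comparison. The 69 members summed to 388 CPM in the bulk CD45+ library of mouse 1 (121118 RNA counts), 984 CPM in bulk GFP+ primary cells of mouse 1 and 269 CPM in those of mouse 2. They summed to 851 CPM in the bulk GFP+ peritoneum library and 1355 CPM in the GFP negative one, both of mouse 1. Hist1h2bc made up 878 of the 984 CPM, 158 of the 269, 726 of the 851 and 1205 of the 1355, but 14.1 of the 388 CPM in CD45+ cells. The single-exon receptor genes, the gauge of genomic reads, summed to 30231 CPM in the bulk CD45+ library, 2878 CPM in the GFP negative peritoneum library and 80.6 to 447 CPM in the bulk GFP+ libraries, so histone RNA and genomic reads cannot be told apart in the CD45+ library. In a bulk library, fewer cells of a type and less RNA per cell cannot be told apart.

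By means over cells, kidney differed in direction from liver and spleen when each mouse was set against its own GFP+ primary cells. The difference between sites was not tested. By mean, the summed level of all 69 members was higher in kidney in 2 of 2 mice. It was lower in liver and in spleen in 2 of 2 mice each. The median cell reversed this direction in 1 mouse at each of these sites. In mouse 2, GFP+ primary cells had a median of 146 CPM, kidney 94.3 and liver 230. In mouse 3, the spleen median of 76.1 CPM lay above that of GFP+ primary cells. The mean change differed by 188 CPM between kidney and liver and by 311 CPM between kidney and spleen. The linker members alone differed by -26.2 CPM in kidney on average, lower in 2 of 2 mice, and were also lower in liver and spleen in 2 of 2 mice each. In kidney the median log2 difference of the 4 linker genes in the fit of sums went the other way, at 0.75. The sum over linker members is weighted to its highest genes, and 1 cell gave 44.9% of the counts of Hist1h1e. With no filter on cells the mean of all members was 419 CPM in liver and 376 CPM in GFP+ primary cells, so the lower level in liver was not seen there. For the core members alone these gaps were 178 and 297 CPM. Without Hist1h2bc, the mean of the core members was higher than in the primary tumour in peritoneum in 3 of 3 mice and in kidney in 2 of 2. It was lower in spleen in 2 of 2, with gaps to spleen of 137 and 178 CPM. By median, mouse 2 had 100 CPM in peritoneum and 57.2 in kidney, under the 125 of GFP+ primary cells. Spleen of mouse 3 had a median of 51.6 CPM, above 22.2 in GFP+ primary cells. The other medians of the core members without Hist1h2bc kept the direction of the means. The sites share the primary samples of each mouse.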

How the results depend on the processing

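The count of 0 called members stayed at 0 in 106 refits and not in 6. With DESeq2 the calls were 1 for CD45+, 1 for GFP+EpCAM+, 1 for peritoneum, 5 for liver and 1 for spleen. With the replicate block, which pairs sums of a mouse, 1 member was called in liver (Hist1h1e), and the block changed no other call. Leaving out a mouse gave 0 called members in each comparison. Leaving out the 2 deepest cells, an alternative chosen after seeing the data, also gave 0. The difference of Mki67 between CD45+ and GFP+ cells reversed to -0.33 and -0.28 with limma (log2(CPM+1) and log2(CPM+0.1)) and to -3.74 without replicate 2 (1.46 without replicate 3); the cause was not tested. Of the summed levels, liver moved to 419 CPM with no filter on cells. With no filter on cells the median rho of the core members other than Hist1h2bc with Top2a was 0.37, that of Hist1h2bc with Mki67 -0.03 and that of all members with Top2a 0.30. Leaving out a mouse, also added later, put the median rho of linker members with Mki67 at 0.22 to 0.35 and that of the other core members with Top2a at 0.23 to 0.31. With log2(CPM+10) the median Pearson r of Hist1h2bc with Mki67 was -0.12. At the observed spread between 2 or 3 mice, and with most members under 10 CPM, the depth limits which differences can be shown.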
